A study of Mus musculus with 18 samples.

Results

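The mucin-type glycosyltransferases and sulfotransferases are the enzymes that build, branch, cap and sulfate the sugar chains of mucins and other glycoproteins and glycolipids. They were taken by symbol: protein-coding genes of the Galnt, Gcnt, B3gnt, B4galt, B3galt, B4galnt, B3galnt, C1galt, St3gal, St6gal, St6galnac, Fut, Ggta and Chst families with a number after the family name. The rule found 88 of the 54532 genes in the count table, under 87 symbols. It used no measured value itself but was chosen with earlier results of these data known. St6galnac2 has 2 gene identifiers, which overlap on 1 strand of chromosome 11, so the split of reads between them is uncertain. Of the 88 members 69 passed the filter on low counts and were tested among 17692 genes, 19 did not, and 1 of those 19, B3gnt4, had no count in any library. The 19 were 6 initiating enzymes, 3 extension enzymes, 2 fucosyltransferases, 3 sialyltransferases, 4 sulfotransferases and B3galnt1, and none exceeded 0.788 FPKM (the authors' values per transcript length and library depth) in a library. Of the 69 tested members 26 were called in none of the 11 comparisons below and 43 in at least 1.

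Polyadenylated RNA came from epithelial cells of mouse colon, taken mechanically with forceps in cold saline with 30 mM EDTA. There were 6 groups of 3 libraries: untreated wild-type BL6 mice (C57BL/6J), Rab11-FIP1 knockout mice and Rab11-FIP2 knockout mice, each sampled in the distal and in the proximal colon. Both genes encode partners of Rab11, a GTPase of recycling endosomes that sorts cargo to the apical membrane. The labels give no age, sex, background strain of the knockouts, deleted part of either gene or cell type of deletion. They also leave unsaid if each library came from its own mouse, and the spread behind the p-values may therefore be technical alone.

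Summed counts ran from 11193308 to 22062300 per library. Rab11fip1 was lower in both FIP1 knockout groups, with 46.4 to 82.5 CPM against 92.0 to 175 CPM in wild type, and Rab11fip2 in both FIP2 knockout groups, with 2.48 to 4.28 against 4.93 to 8.68 CPM. The summed level of 5 epithelial markers was 6134 to 7518 CPM in distal wild type and 9388 to 10553 CPM, the highest range, in distal FIP2 knockout. Wild-type proximal library 2 stood apart: its forebrain neuron markers summed to 124 CPM, against 23.3 and 25.7 CPM in the other 2 libraries of its group. Its enteric neuron and glia markers summed to 32.3 CPM against 9.29 and 11.1. Macrophage and dendritic cell markers summed to 44.9 CPM against 7.43 and 10.9. T cell and innate lymphocyte markers were not higher in it (12.7 against 12.8 and 16.0 CPM). Mitochondrially encoded genes took up 18.1 to 32.3% of the counts in wild-type and 11.2 to 20.1% in knockout libraries. The members together held 0.526 ± 0.0510% of the counts in distal and 0.480 ± 0.0179% in proximal wild type (SD, n = 3), against group means of 0.630 to 0.685% in the knockouts. With mitochondrial counts left out of the total, the wild-type means were 0.696 and 0.631% and the knockout means 0.742 to 0.809%.

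Mucin-type sugar chains start when a Galnt enzyme places N-acetylgalactosamine on a serine or threonine. C1galt1 with its chaperone C1galt1c1 makes core 1, Gcnt1, Gcnt3 and Gcnt4 branch it into core 2, and B3gnt6 makes core 3. B3gnt, B4galt and B3galt enzymes lengthen the chain, and fucose, sialic acid, N-acetylgalactosamine, galactose or sulfate close it. In the mouse colon these chains make up most of the mass of the Muc2 mucus layer and also coat the cell surface. The name families also hold enzymes that act on glycolipids, on N-glycans and on proteoglycans, and those are described as such.

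The promoters of 4 members are shown because their transcripts carry the main patterns below: B3galt5, higher in both knockouts in both segments, Ggta1, high only in the proximal FIP2 knockout libraries, and B3gnt7 and Gcnt4, which differed between segments in opposite directions. Each is the 250 bases before the transcription start in RefSeq (build GRCm38.p6), written 5′ to 3′ on the gene's strand. They lie at chr16:96235551-96235800 (plus strand), chr2:35461450-35461699 (minus strand), chr1:86302971-86303220 (plus strand) and chr13:96924463-96924712 (plus strand). B3galt5 has 3 promoter entries and Gcnt4 has 2, and the entry nearest to the gene's outer end in the count table was taken. That end and the RefSeq start are the same base for B3galt5 alone of the 4. Fut2 and Gcnt3, also prominent below, have no entry there. Capitals mark a match to a searched motif.
B3galt5: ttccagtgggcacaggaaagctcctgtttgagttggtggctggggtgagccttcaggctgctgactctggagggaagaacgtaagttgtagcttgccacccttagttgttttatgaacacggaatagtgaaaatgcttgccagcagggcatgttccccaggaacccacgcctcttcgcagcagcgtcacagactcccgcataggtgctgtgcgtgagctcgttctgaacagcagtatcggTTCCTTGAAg
Ggta1: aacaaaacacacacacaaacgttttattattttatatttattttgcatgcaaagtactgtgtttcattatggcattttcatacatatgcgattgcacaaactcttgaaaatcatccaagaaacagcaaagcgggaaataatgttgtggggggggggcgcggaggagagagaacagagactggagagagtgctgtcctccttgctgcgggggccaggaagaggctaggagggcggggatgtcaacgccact
B3gnt7: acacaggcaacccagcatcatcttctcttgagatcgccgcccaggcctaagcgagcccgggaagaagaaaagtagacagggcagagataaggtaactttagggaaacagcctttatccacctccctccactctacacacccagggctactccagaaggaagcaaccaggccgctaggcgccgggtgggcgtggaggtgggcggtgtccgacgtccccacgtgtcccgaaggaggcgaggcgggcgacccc
Gcnt4: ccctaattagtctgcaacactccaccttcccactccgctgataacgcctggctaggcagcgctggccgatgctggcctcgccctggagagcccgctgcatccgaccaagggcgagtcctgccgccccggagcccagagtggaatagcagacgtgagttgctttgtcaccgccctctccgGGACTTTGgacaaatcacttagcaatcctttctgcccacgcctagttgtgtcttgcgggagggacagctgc
The motifs searched on both strands were the STAT-type palindrome TTCNNNGAA, the core of the interferon response element (GAAA, any 2 bases and GAAA), a CDX-type site TTTATGG and an HNF4-type site CAAAGTCC. The first was found in the B3galt5 window, 10 bases before the start, and the last in the Gcnt4 window, where it reads on the opposite strand, 71 bases before the start. The Gcnt4 entry that is not shown holds a match to the first, TTCNNNGAA. The Ggta1 and B3gnt7 windows had no match. No match overlapped another in these 4 windows. RefSeq promoters were found for 66 of the 87 symbols, with 87 entries. TTCNNNGAA stood in 4 of these 87 windows (4.60%) and in 7.02% of all 32851, the interferon core in 0 and 2.98%, TTTATGG in 1 (1.15%) and 2.43%, and CAAAGTCC in 2 (2.30%) and 1.20%. A match describes letters and does not show binding.

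The 88 members spanned a wide range of levels. Compared per transcript length, in FPKM, 35 members had a median of at least 10 over the 18 libraries, 17 a median from 1 to 10, and 36 a median under 1. The 5 highest medians belonged to 2 sialyltransferases, the extension enzyme B3galt5, Fut2 and B4galnt2. St6galnac6, which adds sialic acid to N-acetylgalactosamine or N-acetylglucosamine of sialylated chains, ranged over 214 to 548, median 360.3 FPKM, and St3gal4, which adds it to galactose of lactosamine, over 61.5 to 825, median 329.6 FPKM. Fut2, the secretor fucosyltransferase, ranged over 109.6 to 475, median 272 FPKM. B3galt5, which makes type 1 chains, spanned 71.6 to 436, median 282 FPKM and B4galnt2, which makes the Sda/Cad antigen, 45.5 to 476, median 263 FPKM. The length behind the FPKM is not always the gene length listed with the counts. Fut2, of 5431 listed bases, had a mean of 359 CPM and 278 FPKM, and Gcnt3, of 4301, 389 CPM and 87.8 FPKM. Orders of genes by FPKM and shares of FPKM therefore depend on the length used.

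**Figure D1:**
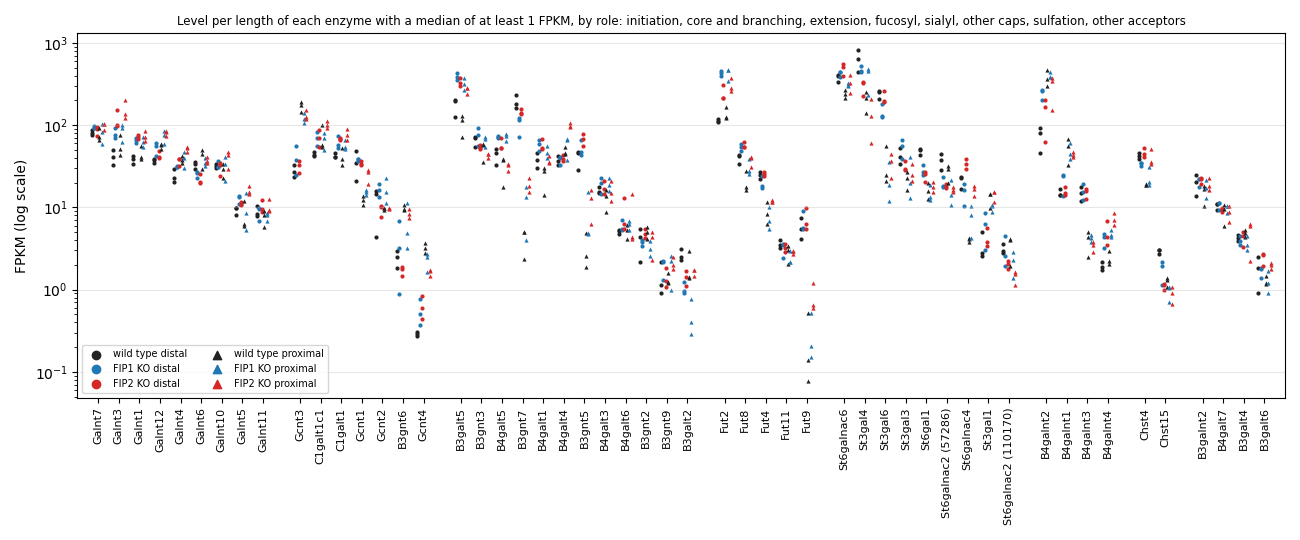
Each point is the FPKM of 1 library on a log scale, for every member with a median of at least 1 FPKM, grouped by role from left to right and ordered by median within a role. Circles are distal and triangles proximal libraries, and colours give the genotype. B3gnt7, B3gnt5, Fut9 and St3gal6 show the proximal libraries below the distal ones, and Gcnt3 and Gcnt4 the reverse.

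By FPKM a few enzymes held most of the transcript within each step. Among initiating enzymes Galnt7, which prefers peptides that already carry sugar, had a median of 89.3 FPKM and Galnt3 84.1 FPKM, ahead of Galnt1 at 63.3 and Galnt12 at 56.9 FPKM. Their ranges over the 18 libraries overlapped. Chst4, which sulfates N-acetylglucosamine, was the leading sulfotransferase at 18.6 to 53.0, median 34.4 FPKM, while Chst15, which sulfates chondroitin, came next at 0.669 to 3.06, median 1.14 FPKM. Enzymes named for related steps were close to absent: St6galnac1, which makes sialyl-Tn, stayed at or under 0.128 FPKM, Chst5 at or under 0.146, Chst1 at or under 0.533 and Chst2 at or under 0.158 FPKM. Of the 88 members 35 overlap another counted gene (at least 100 counts), 17 of them a protein-coding one, and strand use in the counting is not given in the sources used here, so their reads may not be told apart. Galnt2, with 40 counts in all, and B3gnt2 each overlap a protein-coding gene of 0 counts on their own strand. B3gnt4 overlaps Gm15751, with 1062 counts, on its own strand. Whether shared reads were left out of the counts of these members was not tested. The other acceptors, which serve proteoglycans, glycolipids and dystroglycan, were led by B3galnt2 at 10.3 to 24.7, median 18.7 FPKM.

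The distal and proximal colon of wild-type mice differed in more members than any other pair of groups compared. Of the 69 tested members 25 passed (36.2%), 11 higher and 14 lower in the proximal colon. Of all tested genes 16.4% passed, 8.96% higher and 7.39% lower. The median log2 change of the 69 was -0.09 and of all genes -0.01. The libraries of the segments did not overlap in 49.3% of the 69 and in 28.3% of all tested genes. By class, 3 of 6 fucosyltransferases were called, all lower proximally, 6 of 12 sialyltransferases, 4 of them lower, and 5 of 8 core and branching enzymes, 4 of them higher. Extension enzymes had 2 calls of 13 (15.4%), a share near that of all genes. Changes below are log2 fold changes with their standard error (SE), with adjusted p-values (Benjamini-Hochberg over all tested genes) from edgeR's quasi-likelihood test. CPM values are counts scaled to the normalised library size, given for libraries 1, 2 and 3.

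Among enzymes that make cores or branch chains, 4 of 8 tested were higher and 1 lower in proximal wild type. Gcnt3, which makes core 2 and core 4 branches (ENSMUSG00000032226, chromosome 9, 70031496 to 70038088, minus strand, build GRCm38), had 804, 760.0 and 871 CPM in proximal against 108, 110.0 and 150.1 CPM in distal libraries, a rise of 2.73 ± 0.27 (adjusted p 9.65e-07). Every proximal library was above every distal one. Gcnt4, a further core 2 enzyme, had 19.7, 17.7 and 17.1 against 1.48, 1.51 and 1.54 CPM and rose by 3.58 ± 0.33 (adjusted p 2.95e-07), and the segments were far apart. Gcnt1, the core 2 enzyme of many cell types, went the other way, with 44.8, 59.1 and 38.5 proximal and 111, 78.8 and 176 distal CPM (-1.37 ± 0.24, adjusted p 3.83e-04). Per length, Gcnt3 therefore made up 45.7 ± 6.33% (SD, n = 3) of the summed Gcnt1 and Gcnt3 FPKM distally and 93.1 ± 1.84% proximally, shares whose size depends on the length behind each FPKM. B3gnt6, the core 3 synthase, had 26.6, 28.1 and 23.2 proximal and 6.58, 4.69 and 6.15 distal CPM and rose by 2.16 ± 0.48 (adjusted p 0.00331), to 9.84 ± 0.698 FPKM. C1galt1 itself was not called (0.09 ± 0.20, adjusted p 0.821). Its chaperone C1galt1c1 passed at 0.84 ± 0.26 (adjusted p 0.0307) only with wild-type proximal library 2 included: without it the change was 0.40, adjusted p 0.268, and the call was also lost without any of the 3 distal libraries (adjusted p up to 0.0871).

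Extension was led by the largest distal excess of any tested member. B3gnt7, which extends sulfated lactosamine chains (ENSMUSG00000079445, chromosome 1, 86302832 to 86307305, plus strand), had 436, 391 and 340.3 CPM in distal and 10.6, 12.4 and 4.95 CPM in proximal wild type, a change of -5.40 ± 0.40 (adjusted p 3.09e-08). The lowest distal library lay far above the highest proximal one. B3gnt5, which starts lacto-series glycolipids, had 104, 127 and 72.3 distal and 6.63, 14.8 and 4.87 proximal CPM (-3.56 ± 0.43, adjusted p 9.20e-06). These were the 2 of 13 tested extension enzymes that passed. B3gnt3, which extends core 1, was not called (-0.28 ± 0.20, adjusted p 0.398), so that B3gnt7 formed 74.2 ± 4.34% of the summed B3gnt7 and B3gnt3 FPKM distally and 8.12 ± 4.29% proximally. The size of this share depends on the length behind each gene's FPKM, and its direction between segments does not.

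Of 6 fucosyltransferases 3 were lower in proximal wild type and 0 higher. Fut9, which makes Lewis X on lactosamine, had 28.5, 44.4 and 23.8 distal and 0.808, 3.52 and 0.450 proximal CPM (-4.46 ± 0.52, adjusted p 5.88e-06). Fut4, of similar activity, had 104, 97.8 and 107 and 36.3, 58.9 and 26.7 CPM (-1.34 ± 0.22, adjusted p 1.88e-04). In both genes the segments did not overlap. Fut8, which fucosylates the core of N-glycans, changed by -0.80 ± 0.21 (adjusted p 0.0128), a call lost without distal library 2 or proximal library 1 or 3 (adjusted p up to 0.0678). Fut2 was not called between wild-type segments (0.39 ± 0.18, adjusted p 0.167).

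Sialyltransferases divided by segment, with 2 of 12 higher and 4 lower in proximal wild type. On the distal side stood St3gal6 with 235, 278 and 213 against 26.0, 67.2 and 21.5 CPM (-2.67 ± 0.37, adjusted p 4.52e-05) and St3gal4 with 410.2, 337 and 599 against 157, 218 and 104 CPM (-1.49 ± 0.38, adjusted p 0.00905), which both cap lactosamine. St6gal1, which adds α2,6-linked sialic acid to N-glycans, had 115, 128 and 108 distal and 39.8, 57.7 and 31.2 proximal CPM (-1.45 ± 0.21, adjusted p 5.46e-05). St6galnac4, which makes disialylated core 1, had 53.0, 59.3 and 42.0 and 10.5, 11.1 and 10.8 CPM (-2.25 ± 0.24, adjusted p 1.51e-06). The proximal side held St3gal1, which sialylates core 1, with 48.8, 39.1 and 49.7 proximal and 15.3, 8.87 and 9.36 distal CPM (2.03 ± 0.32, adjusted p 1.38e-04). St3gal5, the GM3 ganglioside synthase, had 5.33, 3.63 and 33.8 proximal and 0, 0.0721 and 0.267 distal CPM (6.91 ± 1.47, adjusted p 0.00247). Proximal library 3 was well above libraries 1 and 2 for St3gal5, and without it the change was 5.24, adjusted p 0.0162.

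Other caps and sulfation also separated the segments. B4galnt2 had 668, 638 and 865 proximal and 131, 84.9 and 168 distal CPM (2.501 ± 0.40, adjusted p 1.57e-04), and B4galnt1, which makes GM2 and GD2 gangliosides, 107, 72.2 and 131 and 24.3, 27.6 and 31.7 CPM (1.89 ± 0.24, adjusted p 1.29e-05). B4galnt3, which makes LacdiNAc, was distal, with 56.2, 55.4 and 42.5 against 15.6, 10.4 and 17.99 CPM (-1.80 ± 0.21, adjusted p 5.82e-06). Chst4 was distal too, at 70.3, 74.6 and 65.5 against 33.4, 37.1 and 31.9 CPM (-1.04 ± 0.16, adjusted p 1.20e-04). Chst11, a chondroitin 4-O-sulfotransferase at low level, was proximal (7.59, 5.71 and 8.62 against 0.922, 0.649 and 0.0669 CPM, 3.72 ± 0.57, adjusted p 1.09e-04). Chst15 was lower proximally, at -1.12 ± 0.26 (adjusted p 0.00477). Chst3, a chondroitin 6-O-sulfotransferase under 2.1 CPM in every wild-type library, passed at -2.68 ± 0.89 (adjusted p 0.0454), a call lost without distal library 3 or any proximal library (adjusted p up to 0.314). Without distal library 3 it was -1.52, adjusted p 0.314. Of 11 initiating enzymes 2 were called, both higher proximally: Galnt4 by 0.80 ± 0.16 (adjusted p 0.00176) and Galnt12 by 0.70 ± 0.17 (adjusted p 0.00632), which both also act on glycopeptides. Galnt3 (0.62 ± 0.25, adjusted p 0.102, and 0.81, adjusted p 0.0394 without proximal library 3), Galnt5 (-0.04 ± 0.28, adjusted p 0.953) and Galnt7 (0.06 ± 0.19, adjusted p 0.883) were not called, and none of the 4 tested enzymes for other acceptors passed (0 at an unadjusted p under 0.05).

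The proximal and distal epithelium also differed in the markers of its cell types, which bulk RNA cannot separate from changes within cells: fewer cells of a type and less RNA per cell cannot be told apart here or in the results that follow. The 8 goblet cell markers summed to 19478 to 22133 CPM in distal and 13757 to 25934 CPM in proximal wild type, with 2 called higher and 1 lower proximally. The 6 absorptive colonocyte markers summed to 4679 to 11099 and 21956 to 27097 CPM, with 2 higher and 3 lower. The 6 enteroendocrine markers summed to 161 to 210.5 and 585 to 724 CPM, with 4 higher. Their part in the segment pattern of the enzymes was not tested.

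The same segments were compared in each knockout to see whether the distal and proximal sets were still apart. In FIP1 knockout 18 of 69 members passed (26.1%), 5 higher and 13 lower proximally. Of all genes 6.6% passed, 2.94% higher and 3.65% lower. In FIP2 knockout 19 passed (27.5%), 11 higher and 8 lower. Of all genes 9.47% passed, 4.99% higher and 4.49% lower. B3gnt7 stayed distal, at -3.07 ± 0.35 in FIP1 and -2.91 ± 0.35 in FIP2 knockout (adjusted p 1.43e-05 and 1.41e-05). Fut9 gave -4.39 ± 0.49 and -3.14 ± 0.45, St3gal6 -2.63 ± 0.37 and -2.63 ± 0.37, B3gnt5 -2.58 ± 0.40 and -2.49 ± 0.40, and B4galnt3 -1.77 ± 0.21 and -2.12 ± 0.21, and all of these passed in both knockouts. Fut4 passed at -1.32 ± 0.22 and -1.06 ± 0.21. St6galnac4 passed at -0.996 ± 0.22 in FIP2 knockout, and in FIP1 knockout at -0.92 ± 0.22 (adjusted p 0.0139), a call lost without distal library 1 or 3 or proximal library 2 (adjusted p up to 0.107). Gcnt3 stayed proximal at 1.73 ± 0.27 and 2.12 ± 0.27, Gcnt4 at 2.18 ± 0.30 and 1.42 ± 0.30, and B4galnt1 at 1.30 ± 0.23 and 1.53 ± 0.23, all called. Gcnt1 remained distal in FIP1 knockout (-1.20 ± 0.23, adjusted p 0.00260) and gave -0.42 ± 0.23 (adjusted p 0.355) in FIP2 knockout. B3gnt6, Chst11 and St3gal1 passed as proximal in FIP2 knockout, at 2.33 ± 0.48, 3.32 ± 0.56 and 1.76 ± 0.31, and had 0.86 ± 0.46 (adjusted p 0.393), 1.80 ± 0.54 (adjusted p 0.0518) and 0.84 ± 0.31 (adjusted p 0.128) in FIP1 knockout. The FIP1 values of B3gnt6 and St3gal1 passed without distal library 2 (1.78, adjusted p 0.0152 and 1.29, adjusted p 0.0141).

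**Figure D2:**
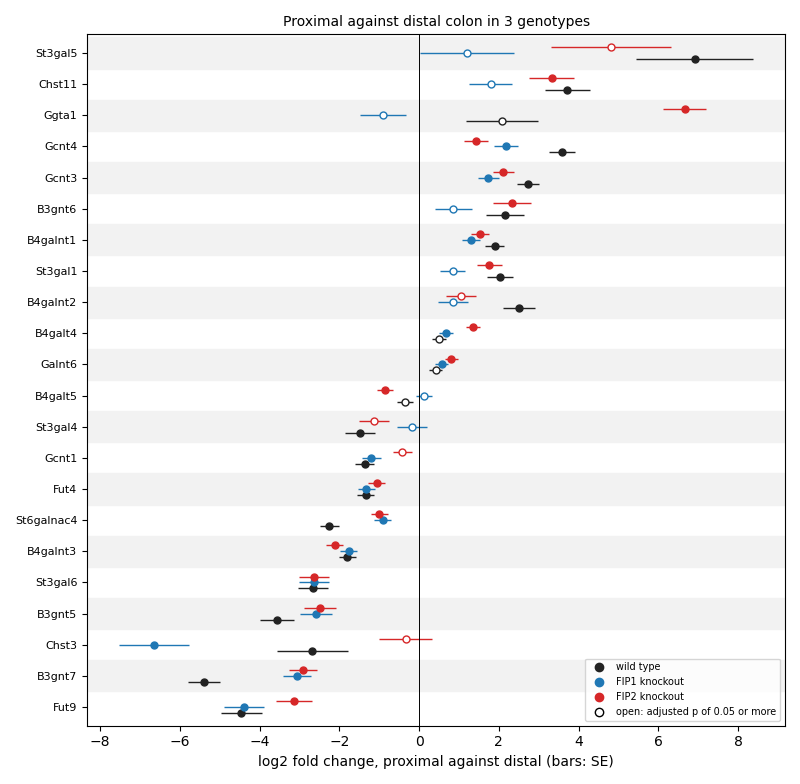
Points are log2 fold changes of proximal against distal colon in wild type (black), FIP1 knockout (blue) and FIP2 knockout (red), with bars of 1 SE and 3 libraries in each group. Filled points passed an adjusted p of 0.05 in edgeR. B3gnt7, Fut9, B3gnt5, St3gal6 and B4galnt3 lie left of 0 and Gcnt3, Gcnt4 and B4galnt1 right of 0 in all 3 genotypes, and Ggta1 is called only in FIP2 knockout.

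Some enzymes passed between segments in a knockout and not in wild type, or the reverse, a contrast that is tested further below. B4galt4, which galactosylates sulfated N-acetylglucosamine, was higher proximally by 0.68 ± 0.17 (adjusted p 0.0174) in FIP1 and 1.35 ± 0.17 (adjusted p 2.73e-05) in FIP2 knockout, and by 0.50 ± 0.17 (adjusted p 0.0511) in wild type. Galnt6, an initiating enzyme, was higher by 0.57 ± 0.17 (adjusted p 0.0478) and 0.81 ± 0.17 (adjusted p 0.00331), with 0.42 ± 0.17 (adjusted p 0.102) in wild type. The FIP1 calls were lost without any 1 library other than distal library 2 (adjusted p up to 0.253) for Galnt6 and without distal library 1 or 3 or proximal library 1 or 3 (adjusted p up to 0.137) for B4galt4. B4galt5, which makes lactosylceramide, was lower proximally in FIP2 knockout, at -0.86 ± 0.20 (adjusted p 0.00809). Chst3 was lower in FIP1 knockout, with 3 counts over the proximal and 316 over the distal libraries, a ratio of 117 (95% counting interval 39.7 to 571). In an alternative edgeR fit the libraries of each genotype were paired across segments by their number. With it 5 more members of a list of O-glycan enzymes passed between FIP2 knockout segments. These were St3gal4 at -1.26, adjusted p 0.00964, Fut8 at -0.59, adjusted p 0.0150, and St6galnac6 at -0.55, adjusted p 0.0135. The others were B4galt1 at -0.57, adjusted p 0.0418, and B4galnt2 at 1.11, adjusted p 1.25e-04.

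The knockouts were then compared with wild type within each segment. Loss of Rab11-FIP1 or Rab11-FIP2 cannot be told apart here from differences in background strain, age or sex, which the labels do not give for the knockouts. Fut2 and B3galt5, which together make fucosylated type 1 chains, were higher in each of the 4 comparisons, and St6galnac2, which sialylates core 1, was lower in each. Distally 17 of 69 members passed in FIP1 knockout (24.6%), 9 higher and 8 lower, where 16.3% of all genes passed, 8.84% higher and 7.47% lower. In distal FIP2 knockout 16 passed (23.2%), 9 higher and 7 lower, where 18.5% of all genes passed, 9.13% higher and 9.38% lower. Proximally 11 passed in FIP1 knockout (15.9%), 8 higher and 3 lower, where 13.6% of all genes passed, 6.7% higher and 6.89% lower. In proximal FIP2 knockout 19 passed (27.5%), 15 higher and 4 lower, where 14.7% of all genes passed, 7.6% higher and 7.07% lower. Without wild-type proximal library 2 the proximal counts were 16 (11 higher, 5 lower) and 24 (20 higher, 4 lower). Of all 18363 genes tested without it 2334 and 3608 passed, against 2404 and 2594 of 17692 with it. The median changes of the 69 were 0.18, -0.02, 0.01 and 0.18 in that order, and those of all genes lay from -0.02 to 0.00. Both knockouts of a segment were set against the same 3 wild-type libraries, so their comparisons are not independent. The libraries of knockout and wild type did not overlap in 43.5, 44.9, 26.1 and 44.9% of the 69 members. Of all tested genes 35.8, 37.6, 26.6 and 29.3% did not overlap (distal FIP1, distal FIP2, proximal FIP1, proximal FIP2).

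**Figure D3:**
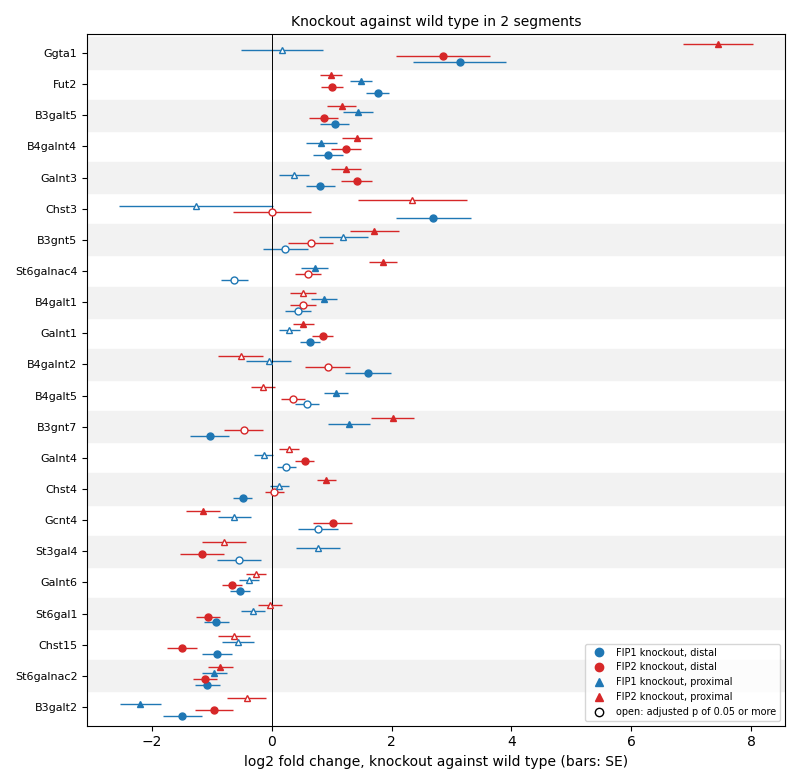
Points are log2 fold changes of knockout against wild type with bars of 1 SE, for FIP1 knockout (blue) and FIP2 knockout (red) in distal (circles) and proximal colon (triangles), 3 libraries in each group. Filled points passed an adjusted p of 0.05 in edgeR. Fut2, B3galt5 and B4galnt4 are filled and right of 0 in all 4 comparisons, St6galnac2 is filled and left of 0 in all 4, and Ggta1 in proximal FIP2 knockout lies farthest from 0.

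Initiating enzymes gave 4 calls of 11 tested in distal FIP1 knockout (2 higher, 2 lower), 5 in distal FIP2 knockout (3 higher, 2 lower), 1 lower in proximal FIP1 knockout and 3 in proximal FIP2 knockout (2 higher, 1 lower). Galnt3, a widely acting initiator, had 69.0, 66.2 and 50.2 CPM in distal wild type, 91.5, 136 and 98.7 in FIP1 and 203, 143 and 148 in FIP2 knockout. In the proximal colon it had 78.9, 138 and 68.0, 134, 102 and 134 and 285, 178 and 213 CPM. Both knockouts were above wild type distally, and FIP2 knockout also proximally, where wild-type library 2 was the highest of its group and overlapped FIP1 knockout. The rises were 0.81 ± 0.25 (adjusted p 0.0311), 1.42 ± 0.25 (adjusted p 7.61e-04) and 1.25 ± 0.25 (adjusted p 0.00267), and 0.38 ± 0.25 (adjusted p 0.364) in proximal FIP1 knockout, which became 0.75, adjusted p 0.0406 without wild-type library 2. The distal FIP1 call was lost without any 1 library other than FIP1 knockout library 1 (adjusted p up to 0.171). Galnt1, a housekeeping initiator, had 77.6, 82.7 and 70.3 CPM in distal wild type, 106, 138 and 116 in FIP1 and 139, 135 and 142 in FIP2 knockout, and rose by 0.64 ± 0.17 (adjusted p 0.0147) and 0.85 ± 0.17 (adjusted p 0.00211). The FIP1 call was lost without FIP1 knockout library 2 or wild-type library 3 (adjusted p up to 0.0940). Proximally it had 85.1, 137 and 81.4 in wild type and 162, 141 and 135 CPM in FIP2 knockout (0.53 ± 0.17, adjusted p 0.0445), with wild-type library 2 among the knockout values and the call lost without any 1 library other than wild-type library 2 (adjusted p up to 0.183). Without wild-type library 2 it was 0.82, adjusted p 8.78e-04.

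Galnt6 fell distally, with 110.3, 109 and 131 CPM in wild type, 84.0, 89.7 and 69.8 in FIP1 and 62.1, 70.2 and 89.3 in FIP2 knockout. Both knockouts lay below wild type without overlap, and the changes were -0.52 ± 0.17 (adjusted p 0.0381) and -0.66 ± 0.17 (adjusted p 0.0105). The FIP1 call was lost without any 1 library other than FIP1 knockout library 2 (adjusted p up to 0.171), and the FIP2 call without FIP2 knockout library 1 or wild-type library 3 (adjusted p up to 0.0592). Galnt4 rose in distal FIP2 knockout, with 150.1, 198 and 198 against 139.5, 125 and 109 CPM (0.55 ± 0.16, adjusted p 0.0247), a call lost without FIP2 knockout library 2 or 3 or wild-type library 2 or 3 (adjusted p up to 0.118). Galnt7, Galnt12 and Galnt5 were not called in any of the 4 comparisons, although Galnt12 passed in distal FIP1 knockout without FIP1 knockout library 3 (0.54, adjusted p 0.0465) and Galnt5 in proximal FIP2 knockout without wild-type library 2 (1.32, adjusted p 0.00154).

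Galnt17, an initiator known from neurons, was counted at low level in wild type and at 0 to 2 counts in each knockout library. Distal wild type had 2.09, 1.73 and 1.81 CPM, FIP1 knockout 0, 0.0824 and 0.124 and FIP2 knockout 0, 0.0899 and 0. Proximal wild type had 0.323, 2.31 and 0.375 CPM, with library 2, the one highest in forebrain neuron markers, well above the others, and FIP2 knockout 0, 0.0647 and 0. FIP1 knockout had no count there. Over the group counts the distal ratio of wild type to FIP1 knockout was 29.3 (95% counting interval 9.70 to 145) and to FIP2 knockout 55.9 (15.0 to 469). In proximal FIP1 knockout the level was at least 14.9-fold lower, where the group's 0 counts were set to a floor of 3. The proximal ratio of wild type to FIP2 knockout was 39.4 (6.55 to 1608). This ratio and the proximal FIP1 bound rest on 30 wild-type counts, most of them in library 2. Galnt17 passed the filter on low counts through wild-type libraries alone, so its calls in edgeR give no independent support. It is named although its mean is under 1 CPM. These intervals and the floor hold counting error alone. Of 7 forebrain neuron markers 7 were called lower in proximal FIP1 knockout and 5 in each FIP2 comparison. None was called in distal FIP1 knockout, where they summed to 9.97 to 11.8 CPM against 12.8 to 14.7 CPM in wild type. Their part in the Galnt17 result was not tested.

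Core-forming and branching enzymes gave 0 calls of 8 in distal and in proximal FIP1 knockout, 1 higher in distal FIP2 knockout, and 2 higher and 1 lower in proximal FIP2 knockout. In the FIP1 comparisons 1 distal and 2 proximal members of the 8 had an unadjusted p under 0.05 in edgeR, and DESeq2 called 0 in each. Gcnt4 had 1.48, 1.51 and 1.54 CPM in distal wild type and 3.93, 2.25 and 3.05 in distal FIP2 knockout, a rise of 1.02 ± 0.33 (adjusted p 0.0352). Proximally it had 19.7, 17.7 and 17.1 CPM in wild type and 8.10, 7.25 and 9.35 in FIP2 knockout, a fall with a change of -1.14 ± 0.28 (adjusted p 0.0114). In both segments the groups did not overlap. The distal call was lost without any 1 library other than FIP2 knockout library 2 (adjusted p up to 0.151), and the proximal call without FIP2 knockout library 2 (-1.05, adjusted p 0.0528). FIP1 knockout had 1.69, 3.96 and 2.29 CPM distally and 12.6, 15.5 and 7.41 CPM proximally, between the other groups on average, and was not called (0.78 ± 0.33, adjusted p 0.123 and -0.62 ± 0.28, adjusted p 0.156).

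C1galt1, the core 1 synthase, rose in proximal FIP2 knockout by 0.73 ± 0.20 (adjusted p 0.0229), with 524, 458 and 426 against 247, 397 and 208 CPM. The call was lost without FIP2 knockout library 1 or wild-type library 1 or 3 (adjusted p up to 0.111). Gcnt1 rose there by 0.86 ± 0.23 (adjusted p 0.0195), with 62.5, 96.7 and 98.1 against 44.8, 59.1 and 38.5 CPM, a call lost without FIP2 knockout library 2 or 3 or wild-type library 1 or 3 (adjusted p up to 0.0898). Gcnt3 was not called in any of the 4 comparisons, with 0.39 ± 0.26, 0.11 ± 0.26, -0.61 ± 0.26 and -0.50 ± 0.26 (distal FIP1, distal FIP2, proximal FIP1, proximal FIP2). Its share of summed Gcnt1 and Gcnt3 FPKM was 88.7 ± 1.92% in proximal FIP1 and 84.1 ± 4.32% in proximal FIP2 knockout. C1galt1c1 and B3gnt6 were not called in any of the 4. Without wild-type proximal library 2, C1galt1c1 passed in FIP2 knockout (0.80, adjusted p 0.0175) and C1galt1 in FIP1 knockout (0.61, adjusted p 0.0328).

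Extension enzymes gave 3 calls of 13 in distal FIP1 knockout (1 higher, 2 lower), 2 in distal FIP2 knockout (1 higher, 1 lower), 5 in proximal FIP1 knockout (4 higher, 1 lower) and 4 higher in proximal FIP2 knockout. B3galt5 (ENSMUSG00000074892, chromosome 16, 96235801 to 96319859, plus strand) had 552, 393 and 603 CPM in distal wild type, 1008, 1269 and 927 in FIP1 and 1008, 856 and 966 in FIP2 knockout. In the proximal colon it had 358, 459 and 220.4, 770.4, 1201 and 841 and 778, 814 and 735 CPM. Every knockout library was above every wild-type library of its segment. The rises were 1.05 ± 0.24 (adjusted p 0.00571), 0.87 ± 0.24 (adjusted p 0.0170), 1.44 ± 0.24 (adjusted p 5.41e-04) and 1.17 ± 0.24 (adjusted p 0.00340) in distal FIP1, distal FIP2, proximal FIP1 and proximal FIP2 knockout. The distal FIP2 call was lost without FIP2 knockout library 1 or wild-type library 2 (adjusted p up to 0.0766).

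B3gnt7 had lower values in the knockouts distally and higher ones proximally. Distal wild type had 436, 391 and 340.3 CPM, FIP1 knockout 206, 145 and 218 and FIP2 knockout 251, 311 and 282, and proximal wild type had 10.6, 12.4 and 4.95, FIP1 knockout 26.7, 8.95 and 31.9 and FIP2 knockout 34.8, 44.5 and 32.9 CPM. The distal knockout libraries were all below the distal wild-type ones, while proximally only FIP1 knockout library 2 overlapped wild type. The distal fall passed in FIP1 knockout (-1.04 ± 0.33, adjusted p 0.0350) and not in FIP2 knockout (-0.47 ± 0.32, adjusted p 0.331), and the FIP1 call was lost without any 1 of the 6 libraries (adjusted p up to 0.131). Proximally it rose by 1.29 ± 0.35 (adjusted p 0.0193) and 2.02 ± 0.36 (adjusted p 0.00101), the former lost without FIP1 knockout library 1 or 3 or wild-type library 3 (adjusted p up to 0.115).

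B3galt2, a further β1,3-galactosyltransferase that overlaps Cdc73 on the opposite strand, fell in 3 comparisons. It had 21.5, 31.2 and 22.3 CPM in distal wild type, 7.48, 11.5 and 7.84 in FIP1 and 9.46, 15.5 and 13.4 in FIP2 knockout, and proximally 13.6, 34.1 and 13.9, 3.68, 2.94 and 6.49 and 15.1, 16.0 and 14.6 CPM. All FIP1 knockout libraries were below wild type in both segments, distal FIP2 libraries were too, and proximal FIP2 libraries lay within the wild-type range. The changes were -1.49 ± 0.33 (adjusted p 0.00438), -0.96 ± 0.32 (adjusted p 0.0436), -2.19 ± 0.35 (adjusted p 2.83e-04) and -0.42 ± 0.32 (adjusted p 0.416) for distal FIP1, distal FIP2, proximal FIP1 and proximal FIP2 knockout, and the distal FIP2 call was lost without any 1 of the 6 libraries (adjusted p up to 0.167).

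Against wild type, edgeR called 3 galactosyltransferases of the B4galt family, each in the proximal colon, and none of the 3 was called for a difference of its effect between segments. B4galt5 was at 0.58, adjusted p 0.0536 in distal FIP1 knockout in edgeR and was called there by DESeq2 (0.59, adjusted p 0.0382). B4galt5 had 98.6, 115 and 77.3 CPM in proximal FIP1 knockout against 55.1, 29.3 and 53.5 in wild type (1.07 ± 0.20, adjusted p 0.00140) and 41.7, 44.8 and 38.9 in FIP2 knockout (-0.14 ± 0.20, adjusted p 0.688). B4galt1, which makes lactosamine, had 123, 169 and 97.1 against 78.7, 46.4 and 86.4 CPM (0.88 ± 0.22, adjusted p 0.0113), lost without FIP1 knockout library 2 (0.65, adjusted p 0.0639). B4galt4 had 113, 131 and 130.0 CPM in proximal FIP2 knockout against 73.4, 72.5 and 60.0 (0.86 ± 0.17, adjusted p 0.00245). In these 3 the called knockout group lay above wild type without overlap. B3gnt5 rose in proximal FIP2 knockout, from 6.63, 14.8 and 4.87 to 37.3, 31.0 and 16.4 CPM (1.71 ± 0.41, adjusted p 0.00972), which was not called without wild-type library 3 (1.42, adjusted p 0.0541). B3gnt3 was not called in any comparison.

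Fucosyltransferases gave 1 call of 6 in distal FIP1, distal FIP2 and proximal FIP1 knockout and 2 in proximal FIP2 knockout, all higher. Fut2 (ENSMUSG00000055978, chromosome 7, 45648591 to 45666394, minus strand) had 148, 162 and 151 CPM in distal wild type, 532, 573 and 463 in FIP1 and 369, 277 and 281 in FIP2 knockout. Proximally it had 231, 201 and 172, 451, 689 and 558 and 472, 367 and 365 CPM. No knockout library overlapped wild type in either segment, and distally the FIP1 libraries also lay above all FIP2 libraries. The rises were 1.77 ± 0.19 (adjusted p 3.74e-06), 1.01 ± 0.18 (adjusted p 9.65e-04), 1.49 ± 0.19 (adjusted p 2.82e-05) and 0.99 ± 0.18 (adjusted p 0.00149), and each passed in every fit that left out 1 library. Per length Fut2 went from 114 ± 5.09 FPKM (SD, n = 3) in distal wild type to 430.3 ± 28.1 in FIP1 knockout, beside St6galnac6 there at 425 ± 32.3 FPKM. Fut8 rose in proximal FIP2 knockout by 0.66 ± 0.21 (adjusted p 0.0414), a call lost without any 1 library other than wild-type library 2 (adjusted p up to 0.179). Without wild-type library 2 it was 1.06, adjusted p 4.59e-04. Fut4 and Fut9 were not called in any of the 4 comparisons. Without wild-type proximal library 2, Fut8 passed in FIP1 knockout (0.76, adjusted p 0.00534) and Fut4 in FIP2 knockout (0.64, adjusted p 0.0222), and without library 3 Fut4 passed in FIP1 knockout (-0.67, adjusted p 0.0399).

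**Figure D4:**
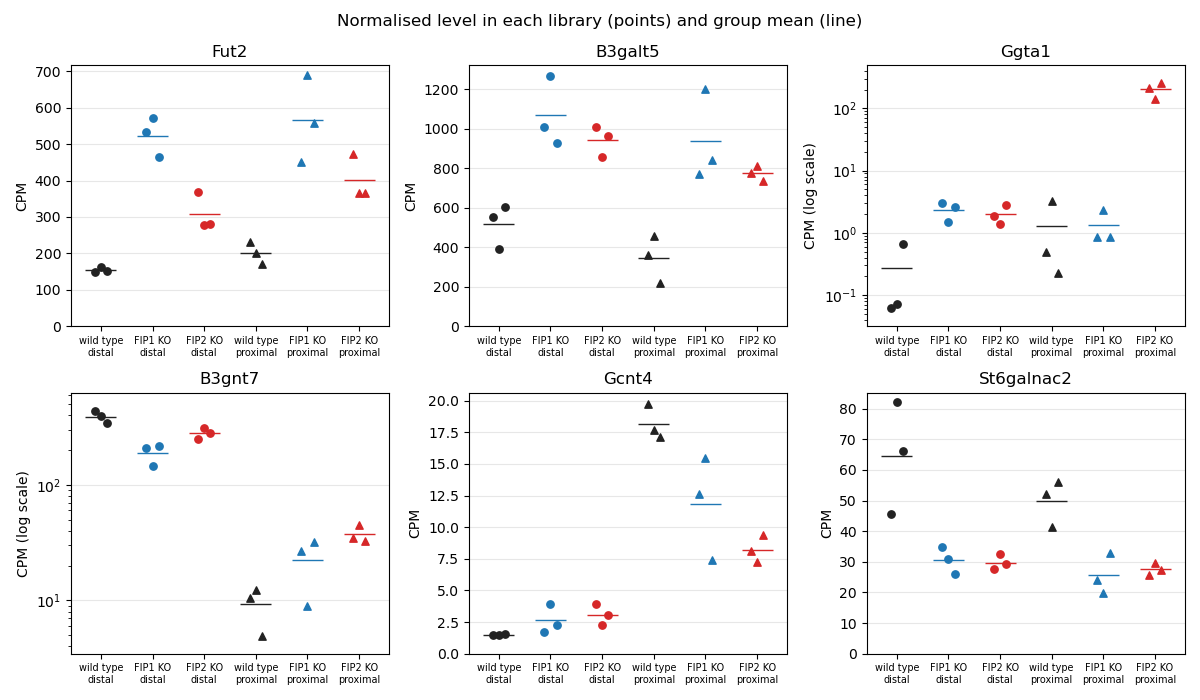
Points are the CPM of each library and lines the group means for 6 members in wild type (black), FIP1 knockout (blue) and FIP2 knockout (red), distal (circles) and proximal (triangles). Ggta1 and B3gnt7 are on log axes, the others start at 0. Fut2 and B3galt5 are above wild type in every knockout library, Ggta1 stands at 144 to 252 CPM only in proximal FIP2 knockout, and St6galnac2 is below wild type in every knockout library.

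Sialyltransferases gave 3 calls of 12 in distal FIP1 knockout (1 higher, 2 lower), 4 in distal FIP2 knockout (1 higher, 3 lower), 3 in proximal FIP1 knockout (2 higher, 1 lower) and 4 in proximal FIP2 knockout (2 higher, 2 lower). St6galnac2 (ENSMUSG00000057286, chromosome 11, 116675303 to 116694868, minus strand) had 45.5, 82.1 and 66.1 CPM in distal wild type, 34.9, 30.8 and 26.2 in FIP1 and 27.6, 32.4 and 29.2 in FIP2 knockout. Proximally it had 52.1, 41.4 and 55.9, 23.9, 19.8 and 32.9 and 25.8, 29.6 and 27.2 CPM. All knockout libraries were below the wild-type libraries of their segment. The changes were -1.07 ± 0.21 (adjusted p 0.00149), -1.12 ± 0.21 (adjusted p 0.00102), -0.96 ± 0.21 (adjusted p 0.00415) and -0.86 ± 0.21 (adjusted p 0.00960), and all 4 passed in every fit without 1 library. The second St6galnac2 identifier, ENSMUSG00000110170, was called in proximal FIP2 knockout only (-1.34 ± 0.32, adjusted p 0.00898).

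St6gal1 fell distally, with 115, 128 and 108 CPM in wild type, 52.3, 76.5 and 56.4 in FIP1 and 44.1, 60.3 and 63.6 in FIP2 knockout. All 6 knockout libraries were below the 3 wild-type ones, and the changes were -0.92 ± 0.20 (adjusted p 0.00420) and -1.06 ± 0.20 (adjusted p 0.00142). Proximally, where wild type was already at 39.8, 57.7 and 31.2 CPM, the changes were -0.31 ± 0.21 (adjusted p 0.366) and -0.03 ± 0.21 (adjusted p 0.939). St3gal4 fell in distal FIP2 knockout, to 145, 223 and 231 from 410.2, 337 and 599 CPM (-1.17 ± 0.37, adjusted p 0.0347), a call lost without any 1 library other than wild-type library 2 (adjusted p up to 0.160).

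St6galnac4 rose proximally, with 10.5, 11.1 and 10.8 CPM in wild type, 19.2, 11.1 and 22.5 in FIP1 and 31.4, 43.0 and 42.9 in FIP2 knockout. The FIP2 libraries stood apart from both other groups. The rises were 0.71 ± 0.23 (adjusted p 0.0469) and 1.86 ± 0.23 (adjusted p 4.04e-05), the former lost without any 1 library other than FIP1 knockout library 2 (adjusted p up to 0.239). St6galnac3, another enzyme for disialylated core 1, had 2 counts over distal wild type and 36 in each knockout, a ratio of 17.4 in FIP1 (95% counting interval 4.48 to 149) and 13.7 in FIP2 (3.52 to 117). Proximally it had 0.242, 0.110 and 0.150 CPM in wild type, 0.668, 1.65 and 0.784 in FIP1 and 1.15, 2.78 and 1.39 in FIP2 knockout, and it stayed under 3 CPM in every library. St6galnac3 passed the filter through knockout libraries alone, so its calls give no independent support either. It too is named although its mean is under 1 CPM. The leading sialyltransferase, St6galnac6, was not called in any of the 4 comparisons, nor were St3gal3, St3gal6 and St3gal1, which passed in distal FIP1 knockout without FIP1 knockout library 3 (1.01, adjusted p 0.0236).

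Among 5 other capping enzymes 3 were higher in distal FIP1 knockout, 2 in distal FIP2, 1 in proximal FIP1 and 2 in proximal FIP2 knockout, and none was lower. Ggta1, which adds the α-linked galactose of the α-Gal epitope (ENSMUSG00000035778, chromosome 2, 35400179 to 35463231, minus strand), had 209, 144 and 252 CPM in proximal FIP2 knockout. In proximal wild type it had 0.485, 3.19 and 0.225 CPM and in proximal FIP1 knockout 0.869, 2.29 and 0.872 CPM. Distally it had 0.0615, 0.0721 and 0.669 CPM in wild type, 3.001, 1.48 and 2.59 in FIP1 and 1.86, 1.39 and 2.77 in FIP2 knockout. All 3 proximal FIP2 libraries thus stood far above the other 15. The rise there was 7.45 ± 0.59 (adjusted p 1.77e-07), to 100.5 ± 24.4 FPKM (SD, n = 3), and passed in every fit without 1 library, 6.89 to 9.15. Proximal against distal in FIP2 knockout gave 6.66 ± 0.54 (adjusted p 1.38e-07). B and plasma cell markers summed to 267 to 400.1 CPM in proximal FIP2, 271 to 428 in distal FIP1, 29.6 to 288 in proximal FIP1 and 37.5 to 49.8 in distal FIP2 knockout, and to 6.27 to 36.1 and 6.45 to 17.0 CPM in distal and proximal wild type. Their part in the Ggta1 result was not tested. The distal rises of Ggta1 were 3.14 ± 0.78 (adjusted p 0.00923) and 2.86 ± 0.78 (adjusted p 0.0162). Without wild-type library 3, the highest of the distal wild-type libraries, they were 5.02, adjusted p 0.00632 and 4.75, adjusted p 0.0110, and the FIP2 call was lost without FIP2 knockout library 3 or wild-type library 1 or 2 (adjusted p up to 0.0680).

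B4galnt4, which like B4galnt3 makes LacdiNAc, rose in each comparison from a low level. It had 2.77, 3.46 and 3.81 CPM in distal wild type, 7.15, 7.34 and 4.82 in FIP1 and 10.5, 5.84 and 7.35 in FIP2 knockout, and proximally 3.64, 4.61 and 5.25, 7.75, 8.16 and 8.11 and 9.71, 14.2 and 12.4 CPM. No knockout library overlapped wild type of its segment. The rises were 0.94 ± 0.26 (adjusted p 0.0162), 1.24 ± 0.25 (adjusted p 0.00240), 0.83 ± 0.25 (adjusted p 0.0344) and 1.43 ± 0.25 (adjusted p 0.00107). The distal FIP1 call was lost without FIP1 knockout library 1 or 2 or wild-type library 1 (adjusted p up to 0.0759), and the proximal FIP1 call without any 1 library other than wild-type library 3 (adjusted p up to 0.128). B4galnt2 rose in distal FIP1 knockout, with 400.1, 457 and 309 against 131, 84.9 and 168 CPM and no overlap (1.60 ± 0.38, adjusted p 0.00756). Distal FIP2 knockout had 97.5, 284 and 352 CPM, with library 1 within the wild-type range and the others above it (0.94 ± 0.38, adjusted p 0.0928), and without library 1 the change was 1.31, adjusted p 0.0134. Proximally B4galnt2 was not called (-0.05 ± 0.37, adjusted p 0.954 and -0.52 ± 0.38, adjusted p 0.379), and neither B4galnt1 nor B4galnt3 was called in any of the 4.

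Sulfotransferases gave 3 calls of 10 in distal FIP1 knockout (1 higher, 2 lower), 1 lower in distal FIP2, 0 in proximal FIP1 (3 at an unadjusted p under 0.05 in edgeR, 1 called by DESeq2) and 1 higher in proximal FIP2 knockout. Chst4 had 33.4, 37.1 and 31.9 CPM in proximal wild type and 78.7, 56.4 and 57.9 in proximal FIP2 knockout, a rise of 0.91 ± 0.16 (adjusted p 9.93e-04) without overlap. Proximal FIP1 knockout had 32.3, 33.8 and 45.7 CPM (0.13 ± 0.16, adjusted p 0.671). Distally Chst4 had 49.7, 55.7 and 45.4 CPM in FIP1 knockout against 70.3, 74.6 and 65.5 in wild type (-0.48 ± 0.16, adjusted p 0.0427), a call lost without any 1 library other than FIP1 knockout library 2 (adjusted p up to 0.177), and 78.5, 71.5 and 66.6 in FIP2 knockout (0.04 ± 0.16, adjusted p 0.889). Chst15 fell distally, with 7.38, 9.59 and 9.16 CPM in wild type, 5.57, 3.30 and 4.94 in FIP1 and 2.58, 3.37 and 3.28 in FIP2 knockout (-0.91 ± 0.25, adjusted p 0.0181 and -1.50 ± 0.26, adjusted p 5.36e-04). Its FIP1 call was lost without FIP1 knockout library 2 or wild-type library 2 or 3 (adjusted p up to 0.0848), and Chst15 overlaps Fgfr2 on its own strand. Chst3 rose in distal FIP1 knockout, from 0.492, 0.361 and 2.07 to 9.93, 3.30 and 5.81 CPM (2.70 ± 0.63, adjusted p 0.00641). None of the 4 tested enzymes for other acceptors was called in a comparison of knockout with wild type by edgeR or DESeq2, and 0 had an unadjusted p under 0.05 in edgeR.

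Direct comparison of the knockouts gave few calls. Distally 3 of 69 members passed (4.35%), where 1.86% of all genes did, 1.22% higher and 0.644% lower in FIP1 knockout: Fut2, higher in FIP1 knockout by 0.76 ± 0.18 (adjusted p 0.0394), Chst3, higher by 2.69 ± 0.62 (adjusted p 0.0316), and St6galnac4, lower at -1.23 ± 0.22 (adjusted p 0.00528). Of these St6galnac4 alone passed in every fit without 1 library. The Fut2 call was lost without any 1 library other than FIP2 knockout library 1 (adjusted p up to 0.179) and the Chst3 call without FIP1 knockout library 1 or 3 or FIP2 knockout library 1 or 2 (adjusted p up to 0.199). Proximally 8 passed (11.6%), 2 higher and 6 lower in FIP1 knockout, where 2.75% of all genes did, 1.33% higher and 1.42% lower. Lower there were Ggta1 at -7.28 ± 0.57 (adjusted p 3.59e-07), B3galt2 at -1.78 ± 0.34 (adjusted p 0.00753), St6galnac4 at -1.14 ± 0.22 (adjusted p 0.00821), B4galt4 at -0.81 ± 0.17 (adjusted p 0.0141) and Chst4 at -0.78 ± 0.16 (adjusted p 0.0110). B4galt5 was higher by 1.21 ± 0.20 (adjusted p 0.00230) and St3gal4 by 1.57 ± 0.38 (adjusted p 0.0301). Chst3, with 3 counts over the proximal FIP1 libraries and 36 over the FIP2 libraries, was lower by a ratio of 13.6 (95% counting interval 4.30 to 69.1). The call of B3galt2 was lost without FIP1 knockout library 2 (adjusted p 0.0517) and that of B4galt4 without FIP1 knockout library 2 or FIP2 knockout library 2 or 3 (adjusted p up to 0.0886). St3gal4 lost its call without FIP1 knockout library 2 or 3 or FIP2 knockout library 1 or 3 (adjusted p up to 0.148), Chst4 without FIP1 knockout library 1 or 2 or FIP2 knockout library 1 (adjusted p up to 0.0710) and Chst3 without FIP1 knockout library 1 or 2 or FIP2 knockout library 2 or 3 (adjusted p up to 0.176). Without FIP1 knockout library 3 the change of Chst3 was -6.58, adjusted p 0.0432.

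Whether a knockout's effect differed between segments was tested directly as the proximal minus the distal change. For FIP1 knockout 1 of 69 members passed (1.45%), where 0.644% of all genes did, 0.136% with a positive and 0.509% with a negative difference. For FIP2 knockout 2 passed (2.90%), where 0.328% of all genes did, 0.0735% positive and 0.254% negative. B3gnt7 passed in both, at 2.33 ± 0.48 (adjusted p 0.0282) for FIP1 and 2.49 ± 0.48 (adjusted p 0.0247) for FIP2, the proximal change lying above the distal one in both knockouts. Gcnt4 passed for FIP2 at -2.16 ± 0.43 (adjusted p 0.0314), a distal rise against a proximal fall. The B3gnt7 call for FIP1 was lost without FIP1 knockout distal library 1 or 2, FIP1 knockout proximal library 1 or 3 or wild-type distal library 1 or 2 (adjusted p up to 0.0958). For FIP2 it was lost without any FIP2 knockout distal library, FIP2 knockout proximal library 2, wild-type distal library 1 or 2 or wild-type proximal library 3 (adjusted p up to 0.0842). The Gcnt4 call was lost without any 1 library other than FIP2 knockout distal library 2 or wild-type proximal library 2 (adjusted p up to 0.101). The call for Ggta1 depended on the tool. Its FIP2 effect differed between segments by 4.59 ± 1.32 in edgeR (adjusted p 0.170), 4.39 in DESeq2 (adjusted p 0.0323) and 5.24 and 5.26 in limma on log2(FPKM + 1) and log2(FPKM + 0.1) (adjusted p 3.58e-06 and 0.0145), and in edgeR fits without 1 library it ran from 2.71 to 6.28. For FIP1 knockout it was -2.97 ± 1.08 in edgeR (adjusted p 0.318), with an adjusted p of 0.278 in DESeq2. Limma did not call B3gnt7 or Gcnt4 for either effect, with adjusted p of 0.0574 to 0.146 for B3gnt7 and 0.117 and 0.163 for the FIP2 effect of Gcnt4.

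The donors and acceptors of the pathway were counted from 4 lists. Of 17 tested mucins and goblet cell products, 3 were higher and 1 lower in distal FIP1, 3 and 2 in distal FIP2, 2 and 0 in proximal FIP1 and 2 and 1 in proximal FIP2 knockout. The membrane mucin Muc4 rose by 0.85 ± 0.23, 1.04 ± 0.23, 1.59 ± 0.23 and 1.57 ± 0.23, and the membrane mucin Muc13 by 1.04 ± 0.19, 1.19 ± 0.19 and 0.67 ± 0.19 in the first 3. Muc1 rose by 2.25 ± 0.47 and 1.65 ± 0.47 distally and by 2.56 ± 0.54 in proximal FIP2 knockout, while Muc3 fell in FIP2 knockout by 1.29 ± 0.36 distally and 1.37 ± 0.36 proximally. The secreted mucin Muc2 was called between segments only, higher proximally by 1.30 ± 0.33 in wild type and 1.42 ± 0.33 in FIP2 knockout.

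Of 23 genes for sugar nucleotide synthesis, 4 were higher and 1 lower in each FIP1 comparison, 5 and 2 in distal FIP2 and 3 and 2 in proximal FIP2 knockout. Gmds, which starts the route from GDP-mannose to GDP-fucose, the donor of Fut2, rose by 0.62 ± 0.18, 0.82 ± 0.18, 0.76 ± 0.18 and 0.74 ± 0.18 in distal FIP1, distal FIP2, proximal FIP1 and proximal FIP2 knockout. Gmppb, which makes GDP-mannose, rose by 1.01 ± 0.17, 0.66 ± 0.17, 0.93 ± 0.17 and 0.68 ± 0.17. Gne, the entry enzyme of sialic acid synthesis, fell distally by 0.55 ± 0.18 and 0.62 ± 0.18, and was also lower in proximal than in distal wild type by 0.90 ± 0.18. Of 10 Golgi sugar nucleotide transporters 1, 0, 2 and 0 were higher and 0, 0, 2 and 1 lower in distal FIP1, distal FIP2, proximal FIP1 and proximal FIP2 knockout. Slc35d1 was higher proximally in wild type by 2.60 ± 0.32 and fell in proximal FIP1 and FIP2 knockout by 1.17 ± 0.30 and 1.27 ± 0.30. Of 8 genes for sulfate uptake and the sulfate donor 1, 2, 0 and 1 were higher and 1, 1, 0 and 1 lower. Papss2, which makes the sulfate donor, was higher proximally in wild type by 1.49 ± 0.23 and fell in proximal FIP2 knockout by 0.81 ± 0.23. Across all tested genes 16.3, 18.5, 13.6 and 14.7% were called in the same 4 comparisons.

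Cell type markers were set beside the knockout results. None of 8 goblet cell markers was called by edgeR in any comparison of knockout with wild type (0 to 2 at an unadjusted p under 0.05), and their sums overlapped proximally (13757 to 25934 CPM in wild type, 15171 to 19430.0 in FIP1 and 14826 to 16932 in FIP2 knockout) but distally the knockouts lay below wild type (19478 to 22133, 15338 to 19026 and 12506 to 16268 CPM). Of 5 tested tuft cell markers 3 to 4 were lower in each comparison, with sums of 29.7 to 46.5 and 46.5 to 54.5 CPM in distal and proximal wild type against 11.7 to 15.7 and 12.2 to 24.4 CPM in FIP1 and 13.9 to 19.0 and 16.3 to 23.2 CPM in FIP2 knockout. Of 3 deep crypt secretory markers 1 was lower in distal FIP1 and 1 in distal FIP2 knockout, with distal sums of 673 to 1434 CPM in wild type, 147 to 402 in FIP1 and 211 to 364 in FIP2 knockout, while proximal sums overlapped. In proximal FIP2 knockout 1 of the 3 was higher and 1 lower. Of 4 crypt base markers 3 were lower in distal FIP1 knockout (47.1 to 74.4 CPM in wild type, 31.4 to 39.6 CPM). In distal FIP2 and in proximal FIP1 knockout 1 of the 4 was lower, and in proximal FIP2 knockout 1 was higher. Of 6 enteroendocrine markers 5 were lower in proximal FIP1 knockout (585 to 724 and 215 to 325 CPM). Of 7 B and plasma cell markers 7 were higher in distal FIP1 and in proximal FIP2 knockout, 2 in proximal FIP1 and 1 in distal FIP2 knockout. Absorptive colonocyte, macrophage and dendritic cell, fibroblast and enteric neuron and glia lists had 0 to 2 calls in each comparison. Of 8 T cell and innate lymphocyte markers 6 to 7 were higher in each, with sums of 6.15 to 8.29 CPM in distal wild type and 116 to 139.8 CPM in proximal FIP2 knockout. Il25, of the tuft list, had no count in distal or proximal FIP1 or in distal FIP2 knockout. The part of these cells in the rises of Fut2, B3galt5 and B4galnt4 and in the falls of St6galnac2 and B3galt2 was not tested.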

How the data were processed

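The deposited gene counts cover 18 libraries of polyadenylated RNA with total counts of 11193308 to 22062300. Tools listed in the submitters' processing notes are HTSeq 0.6.1, STAR 2.5, DESeq2 and TopHat, with builds GRCm38 and mm10 and no role given for each, and strand use in counting is not given in the sources used here. The authors' deposited FPKM values rescale the same counts by library depth and a length per gene. In 18859 genes checked, 1 length per gene fitted all libraries within a relative tolerance of 0.001. That check did not compare the fitted length with the gene length listed with the counts, and they differ for some members, Fut2 among them. FPKM served to compare levels between genes, and those comparisons depend on the authors' length.

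Counts were fitted for all 18 libraries in 1 model with edgeR 4.0.16 (R 4.3.3): TMM factors, the filterByExpr filter, quasi-likelihood tests and Benjamini-Hochberg adjustment within each of 11 comparisons, called under an adjusted p of 0.05. The pipeline was tested on simulated data. No pair of libraries in a group held identical values. SE is the absolute log2 change divided by the square root of F. Counting intervals and the floor of 3 counts cover counting error only.

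Members and lists were chosen with earlier results of these data known. Named members are a list of O-glycan enzymes plus up to 8 called members a direction, ordered by absolute change, with a mean of at least 1 CPM (up to 4 in comparisons of the knockouts and of effects). Galnt17 and St6galnac3, chosen after their values were seen, fall below that mean. Pathway genes were named by adjusted p.

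Comparisons were fitted without pairing of libraries unless stated. Deviations of FIP2 libraries from their group means correlated across the segments at 0.355, 0.200 and 0.242 for numbers 1, 2 and 3. Pairs by number within each genotype were therefore fitted as an alternative for comparisons between segments. FIP1 knockout (0.200, 0.175 and 0.0683) and wild type (-0.0816, 0.110 and 0.169) did not reach 0.1 for every pair. The highest correlation between different numbers was 0.0418 in FIP2 knockout, -0.00297 in FIP1 knockout and 0.0596 in wild type. Distal FIP2 knockout and proximal wild type, of different genotypes, gave 0.0167, 0.161 and 0.167 for equal numbers and at most 0.0119 for different ones. Alternatives were relative log expression factors, no filter, DESeq2 1.42.0, limma 3.58.1 on log2(FPKM + 1) and log2(FPKM + 0.1) for genes with a mean of at least 0.5 FPKM, the compared libraries alone, a replicate block, mitochondrially encoded genes left out and each library left out.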

Additional observations from a re-analysis of the deposited data

Results flagged for a closer look

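For 2 members the effect of a knockout differed between the segments in the interaction test of edgeR. The proximal minus the distal change of B3gnt7 was 2.33 ± 0.48 on the log2 scale for FIP1 knockout (adjusted p 0.0282) and 2.49 ± 0.48 for FIP2 knockout (adjusted p 0.0247), with the knockout means below wild type distally and above it proximally. Both values use the same 6 wild-type libraries. For Gcnt4 the difference was -2.16 ± 0.43 for FIP2 knockout (adjusted p 0.0314), with the knockout mean above wild type distally and below it proximally. DESeq2 called all 3 of these differences and limma none.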

How the results depend on the processing

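Of 139 calls of a member in a comparison, 93 held in every fit without 1 library, 109 in every other alternative that gave an adjusted p, and 92 in both. Over single members 3524 alternative values kept their side of the threshold, 241 lost a call, 90 gained one and 0 reversed. Without the filter on low counts 20 members passed in proximal FIP1 knockout (11 with it), 11 between the knockouts distally (3) and 18 proximally (8), 12 for the FIP1 effect between segments (1) and 9 for the FIP2 effect (2). Of all 33096 genes 3056, 1154, 1398, 644 and 483 passed in the same order. With the filter these were 2404, 329, 486, 114 and 58 of 17692. The members added were mostly ones also tested with the filter, since at most 2 per comparison had not been tested, and the cause was not tested. In a fit to the compared libraries alone proximal FIP1 knockout gave 6 members, and 1287 of all 15214 genes tested there. For the FIP1 effect DESeq2 called 2 members and limma 0 with either pseudocount, where 11 members had an unadjusted p under 0.05 each time. For the FIP2 effect DESeq2 called 5 and limma 1 and 1. Of all genes DESeq2 called 324 of 20678 for the FIP1 and 253 of 16340 for the FIP2 effect. Limma tested 57 members and 16743 genes. With pseudocounts of 1 and 0.1 it called 84 and 53 genes for the FIP1 and 66 and 37 for the FIP2 effect. Ggta1, called for the FIP2 effect by DESeq2 and limma, had an adjusted p of 9.13e-10 in edgeR without the filter and 0.0947 with the block. In distal FIP1 knockout limma on log2(FPKM + 0.1) called 11 of 57 tested members against 17 of 69 in edgeR, and 2413 of 16743 genes against 2886 of 17692. The cause was not tested. Without 1 library the counts ran from 1 to 2 between the knockouts distally, 3 to 8 proximally, 0 to 3 for the FIP1 effect and 0 to 4 for the FIP2 effect. Over all genes they ran from 105 to 254, 190 to 491, 40 to 154 and 34 to 77. Relative log expression factors and leaving out mitochondrially encoded genes kept every count of called members within 1.5 times.

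With a replicate block the counts of called members were 16 and 17 in distal FIP1 and FIP2 knockout, 10 and 20 proximally, 3 and 8 between the knockouts, 30, 20 and 25 between segments in wild type, FIP1 and FIP2 knockout, and 5 and 4 for the FIP1 and FIP2 effects. Of all 17692 tested genes 2926 and 3363 were called distally with the block, 2434 and 2589 proximally, and 340 and 509 between the knockouts. Between segments 3465, 1594 and 2138 were called, against 2893, 1167 and 1676 without the block. For the effects 262 and 202 were called, against 114 and 58. The labels state no pairing, and it rests on a shared number, with correlations over 0.1 for every number in FIP2 knockout alone. With the block Chst4 in distal FIP1 knockout (-0.48, adjusted p 0.0517), St6galnac4 in proximal FIP1 knockout (0.70, adjusted p 0.0616) and St3gal3 and Chst10 between FIP1 segments (-1.12, adjusted p 0.0615 and -2.92, adjusted p 0.0752) were not called. C1galt1 in distal FIP2 knockout (0.59, adjusted p 0.0369), Galnt3, B4galt1 and St6galnac6 between wild-type segments (0.56, -0.61 and -0.52) and Galnt12, St3gal1 and B4galnt2 between FIP1 segments (0.56, 0.95 and 0.86) were called in edgeR with it. These changes were looked up only for members called without the block and for the list of O-glycan enzymes. Among them, apart from the 5 between FIP2 segments given with the results and the effects between segments, no other call changed. The counts with the block hold further gains among other members, which were not looked up.

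With 3 libraries a group, members of a few counts a library have wide intervals, and 19 members did not pass the filter on low counts. A comparison that was not called does not show that levels were equal. The interaction tests in particular lost their calls without single libraries.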
